A study of Mus musculus with 6 samples.

Results

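The miRNAs described here are the 4 mature products of the miR-140 and miR-455 hairpins, miR-140-5p, miR-140-3p, miR-455-5p and miR-455-3p, picked by name from the 1836 miRNAs and 2334 small RNAs listed for each library. All 4 passed the filter on low counts, which kept 541 miRNAs and 997 small RNAs. The libraries came from a mouse model of choroidal neovascularization (CNV), the growth of new vessels from the choroid towards the retina. In the CNV group each eye of male mice aged 7 to 8 weeks received 25 laser burns (532 nm, 100 mW, 0.1 s, 50 µm) around the optic disc, and tissue was taken 7 days later. The control group was male mice of the same age whose eyes received no laser. The layers behind the neural retina, that is the retinal pigment epithelium (RPE), choroid and sclera, were collected as a single piece, and 4 eyes were pooled for each of the 3 CNV and 3 control libraries. The labels name no strain and do not say whether the pools came from different mice, so a p-value here reflects only how much these pools vary, and part of that may be technical.

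A miRNA hairpin is cut into a duplex whose arms, named 5p and 3p, can each be loaded into the silencing complex, where the seed near the 5′ end pairs with target mRNAs. The gene of miR-140 lies in an intron of Wwp2, a ubiquitin ligase gene, and that of miR-455 in an intron of Col27a1, a fibrillar collagen gene. In developing cartilage both are known to be driven with their host genes by SOX9, the master regulator of chondrocytes. Mice that lack miR-140 have shortened bones and cartilage that degrades early, and miR-140-5p is known to repress the matrix protease Adamts5. Mice that lack miR-455 also develop cartilage degeneration, and both of its arms are known to repress the hypoxia factor HIF-2α there. The sclera of birds and fishes holds cartilage, whereas that of mammals is a fibrous layer built by fibroblasts, and both miRNAs are also made outside cartilage. The sclera was not separated from the other layers, so the cells that made these miRNAs cannot be told from the libraries, and the hairpins are called by their names here.

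RefSeq sequences (GRCm38.p6) matched 3 of the 4 names. They are shown because each arm as listed has its own seed (bases 2 to 8, in capitals). Counts are given per name and not per sequence, so the seeds of the reads themselves were not checked. The miR-140-5p arm is named only.
mmu-miR-140-3p: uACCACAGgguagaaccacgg
mmu-miR-455-5p: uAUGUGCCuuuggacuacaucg
mmu-miR-455-3p: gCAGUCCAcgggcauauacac
mmu-miR-497b: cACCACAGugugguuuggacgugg
mmu-miR-5129-3p: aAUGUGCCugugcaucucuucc

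The 3 miR-140 and miR-455 arms shown are 21 or 22 bases long, and none shares a seed with another of these 3. Among the other 1678 mature mouse miRNAs of the table, 1 has the seed of miR-140-3p (miR-497b), 1 has that of miR-455-5p (miR-5129-3p) and 0 have that of miR-455-3p. These seed partners were rare. In the CNV libraries miR-497b had 2 to 8 counts and in the control libraries 7 to 20, too few to be tested. The level of miR-5129-3p was 5.27 ± 1.04 CPM (counts per 1000000, scaled with trimmed mean of M-values, TMM) in CNV pools and 5.44 ± 1.76 CPM in control pools (SD, n = 3 each). Each of the 3 arms differed from its nearest neighbour in sequence by at least 7 single-base changes, and no member had the same counts as another miRNA in the 6 libraries.

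In GRCm38 the miR-140 gene occupies chr8:107551244-107551313 on the plus strand. It sits between exons 16 and 17 of the 24 exons of transcript Wwp2-201 and in an intron of 2 other protein-coding Wwp2 transcripts, while 1 further transcript, Wwp2-206, retains that intron as exon. The mature miR-140-3p covers 107551288 to 107551308. The miR-455 gene occupies chr4:63256851-63256932 on the plus strand, between exons 10 and 11 of the 61 exons of Col27a1-201, and overlaps no annotated exon of its host. Its 5p arm covers 63256867 to 63256888 and its 3p arm 63256904 to 63256924, with 15 bases between them. Host mRNAs, SOX9 and the named targets were not measured, since the libraries held inserts of 14 to 40 nt.

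The libraries held 5321436 to 5820315 counts in the CNV group and 5057142 to 12839386 in the control group, where replicate 2 was the deepest. The share of counts taken by tRNA fragments was 6.47 to 10.6% in CNV libraries and 4.78 to 6.48% in control libraries. No library was a copy of another, since the lowest chi-square of the 15 pairs was 42.5 per degree of freedom. Marker miRNAs had counts in every library for 45 of 46 list members, the exception being miR-675-3p with 0 in control replicate 1. At this depth such counts do not check which layers were collected. Neural retina miRNAs were also abundant, although that layer is not named as collected.

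Of the 4 miRNAs, miR-140-3p was by far the most abundant, and the 3p and 5p arms of the 2 hairpins were used in opposite proportions. A read covers a whole mature miRNA, and these are of about the same length, so levels are compared between miRNAs as CPM. Ligation of adapters is known to favour some sequences, and copies made by amplification could not be told apart. Among the listed miRNAs miR-140-3p ranked 21 to 26 in CNV libraries and 29 to 30 in control libraries. It took 0.922 to 1.04% of all miRNA counts in CNV libraries and 0.916 to 1.14% in control libraries. The other members ranked 80 to 100 in CNV and 79 to 91 in control libraries for miR-140-5p, 96 to 108 in CNV and 107 to 127 in control libraries for miR-455-5p, and 121 to 141 in CNV and 143 to 156 in control libraries for miR-455-3p. The order of levels was miR-140-3p, miR-140-5p, miR-455-5p and miR-455-3p in 5 of 6 libraries. In CNV replicate 2 miR-455-5p lay above miR-140-5p, and in CNV pools the spreads of these neighbours in the order overlapped. In control pools the lowest miR-140-5p value (671 CPM) lay above the highest miR-455-5p value (490 CPM). The other neighbours in the order, miR-140-3p and miR-140-5p, and miR-455-5p and miR-455-3p, did not overlap in either group.

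**Figure D1:**
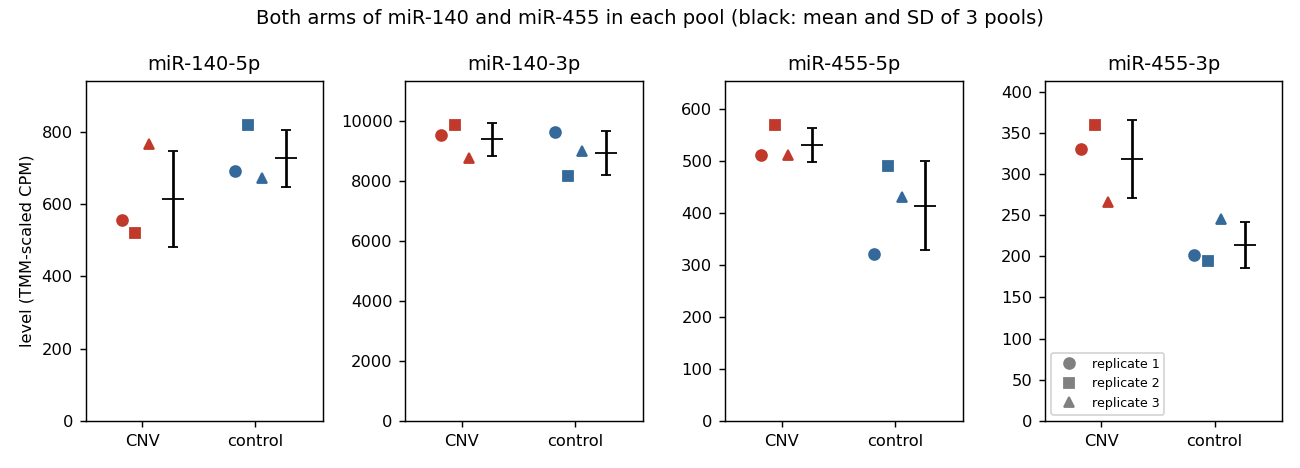
Level of each arm in TMM-scaled CPM (vertical axes start at 0 and differ between panels), with 1 point per pool in the CNV and control groups and the mean ± SD of 3 pools in black. The CNV points lie above all control points for miR-455-5p (not when scaled by library totals alone) and miR-455-3p, and the groups overlap for miR-140-5p and miR-140-3p.

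The comparison of CNV with control tissue addressed which small RNAs differ after laser injury. None of the 4 miRNAs passed the threshold, a Benjamini-Hochberg adjusted p under 0.05 over all 997 small RNAs (edgeR, quasi-likelihood). Over all small RNAs that test called 0.301% higher and 0% lower. At an unadjusted p under 0.05 there was 1 of the 4, miR-455-3p, on the higher side, and 0 on the lower side, where 8.5% of the tested miRNAs were higher and 9.06% lower. DESeq2 and limma-voom called 0 of the 4. Under TMM the groups did not overlap for 2 of the 4, both higher in CNV, a position shared by 12.8% of the tested miRNAs, while 11.3% lay wholly lower. A count over 4 members is too small to be read against these shares.

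The 3p arm of miR-455, one of the pair known to repress HIF-2α in mouse cartilage, showed the largest difference of the 4. Its level was 330, 359 and 265 CPM in CNV replicates 1 to 3, against 201, 194 and 245 CPM in control replicates 1 to 3. No CNV pool reached down to a control pool, but CNV replicate 3 exceeded control replicate 3 by little. The means were 318 ± 47.9 CPM in CNV and 213 ± 27.9 CPM in control pools (SD, n = 3 each), a 1.49-fold difference (95% interval 1.13 to 1.97, log2 0.58, SE 0.18). The unadjusted p was 0.0108 and the adjusted p 0.177 in edgeR's quasi-likelihood test, and the miRNA was number 37 of the 541 when ordered by p. Over the 14 alternative settings its adjusted p ran from 0.0986 with DESeq2 to 0.594 without CNV replicate 2, and the log2 fold change stayed between 0.41 and 0.65.

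The 5p arm of miR-455 was higher in CNV pools by less. It had 512, 568 and 510.3 CPM in CNV replicates 1 to 3, against 321, 490 and 431 CPM in control replicates 1 to 3. The CNV pools lay close together and above all control pools, and control replicate 1 was the lowest of all. The means were 530.0 ± 33.0 CPM in CNV and 414 ± 85.3 CPM in control pools (SD, n = 3 each), a 1.28-fold difference (95% interval 0.957 to 1.71, log2 0.36, SE 0.18, adjusted p 0.372 in edgeR's quasi-likelihood test). When counts were scaled by library totals alone, the groups overlapped and the log2 fold change was 0.21, and it was also 0.21 without control replicate 1. That scaling moved the median log2 fold change of all tested miRNAs to -0.14, against 0.015 under TMM.

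The abundant arm miR-140-3p differed least. It had 9521, 9849 and 8778 CPM in CNV replicates 1 to 3, against 9625, 8150.5 and 8981 CPM in control replicates 1 to 3. The groups interleaved, with CNV replicate 3 below 2 of the control pools. The means were 9382 ± 549 CPM in CNV and 8919 ± 739 CPM in control pools (SD, n = 3 each), a 1.05-fold difference whose 95% interval was 0.842 to 1.31 (log2 0.073, SE 0.14, adjusted p 0.854 in edgeR's quasi-likelihood test). The sign of this value was negative when library totals alone were used for scaling (-0.078) and without control replicate 2 (-0.087), so it carries no direction. A change of 1.5-fold in either direction lay outside the interval.

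The rarer arm miR-140-5p, the one known to repress Adamts5, had 555, 518 and 766 CPM in CNV replicates 1 to 3, against 691, 817 and 671 CPM in control replicates 1 to 3. CNV replicates 1 and 2 lay below all control pools, and CNV replicate 3 lay above 2 of them. The means were 613 ± 134 CPM in CNV and 726 ± 79.3 CPM in control pools (SD, n = 3 each), a ratio of 0.845 (95% interval 0.626 to 1.14, log2 -0.24, SE 0.19, adjusted p 0.586 in edgeR's quasi-likelihood test). Without CNV replicate 3 the log2 fold change was -0.52 with an adjusted p of 0.114, which rests on 2 CNV pools.

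Counting error, if each read stands for a separate molecule, was not what limited these comparisons. The members had 1166 to 113373 counts per library, for which counting alone gives a coefficient of variation of 0.297 to 2.93%. Copies made by amplification would make that error larger. Between pools the coefficient of variation in CNV was 21.8% for miR-140-5p, 5.85% for miR-140-3p, 6.22% for miR-455-5p and 15.05% for miR-455-3p. In control pools it was 10.9%, 8.29%, 20.6% and 13.1% for the same arms in that order. In pooled tissue, fewer cells that make a miRNA and less of it per cell cannot be told apart.

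**Figure D2:**
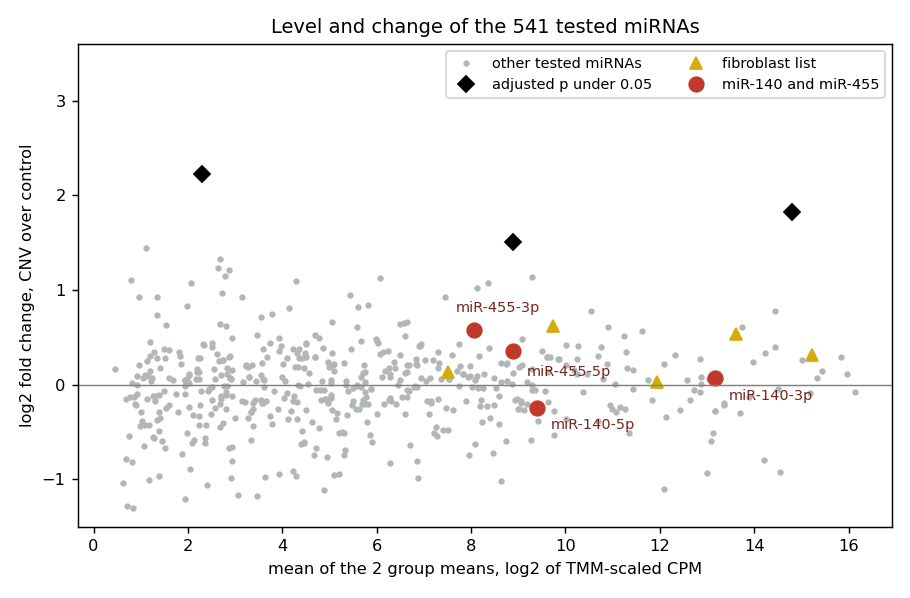
Each point is a tested miRNA, with its mean level on the horizontal axis (log2 of TMM-scaled CPM) and its log2 fold change, CNV over control, on the vertical axis. The miR-140 and miR-455 arms (red circles, log2 fold changes -0.24 to 0.58) lie within the cloud of the 541 miRNAs, well below the 3 called ones (black diamonds).

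The ratio of the 5p to the 3p arm of a hairpin is free of library scaling, since both arms are counted in the same library. The 5p arm held 5.51, 5.001 and 8.03% of the miR-140 counts in CNV replicates 1 to 3, against 6.70, 9.11 and 6.95% in control replicates 1 to 3. Its mean share was 6.18 ± 1.62% in CNV and 7.58 ± 1.33% in control pools (SD, n = 3 each). The miR-140 hairpin was thus represented mainly by its 3p arm in each pool, and the groups overlapped. The 5p arm held 60.8, 61.3 and 65.8% of the miR-455 counts in CNV replicates 1 to 3, against 61.5, 71.6 and 63.7% in control replicates 1 to 3. Its mean share was 62.6 ± 2.75% in CNV and 65.6 ± 5.32% in control pools (SD, n = 3 each). Here the 5p arm was the more abundant in each pool, and the groups overlapped again. For miR-140 the exact (Clopper-Pearson) 95% interval was 7.80 to 8.26% in CNV replicate 3 and 8.95 to 9.27% in control replicate 2, so differences between single libraries exceeded counting error.

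**Figure D3:**
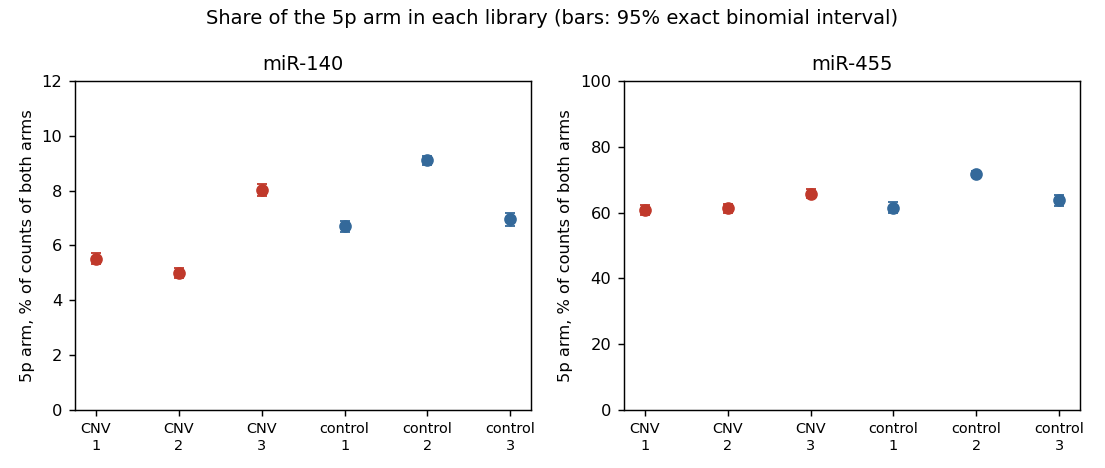
Share of the 5p arm among the counts of both arms, in percent, for each library of the CNV (red) and control (blue) groups, with 95% exact binomial intervals, which cover counting error only. In both hairpins control replicate 2 has the highest share (9.11 and 71.6%) and CNV replicates 1 and 2 have the lowest. For miR-455 the intervals of CNV replicates 1 and 2 overlap that of control replicate 1.

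The log2 ratio of miR-140-5p to miR-140-3p averaged -3.95 ± 0.39 in CNV and -3.62 ± 0.26 in control pools (SD, n = 3 each), a difference of -0.33 (two-sided exact permutation p = 0.3) that was -0.55 without CNV replicate 3 and -0.18 without control replicate 2. That of miR-455-5p to miR-455-3p averaged 0.75 ± 0.17 in CNV and 0.94 ± 0.35 in control pools, a difference of -0.20 (two-sided exact permutation p = 0.5). Without control replicate 2 the difference for miR-455 was 0.0017. The libraries took nearly the same order in both hairpins: control replicate 2 had the highest 5p share, then CNV replicate 3, control replicate 3 and control replicate 1, and CNV replicates 1 and 2 came last, in that order for miR-140 and in the opposite order for miR-455. The log2 ratio of miR-140-3p to miR-455-5p, the more abundant arms of the 2 hairpins, was 4.22, 4.12 and 4.10 in CNV replicates 1 to 3, against 4.90, 4.06 and 4.38 in control replicates 1 to 3. Its means differed by -0.30 (two-sided exact permutation p = 0.4), by -0.073 without control replicate 1 and by -0.50 without control replicate 2. For this pair of arms the groups overlapped, and the test does not decide whether the hairpins differ in response. With the counts of both arms added, the ratio of miR-140 to miR-455 was lower in every CNV pool than in any control pool. The closest pools were CNV replicate 3 (55505 and 4512 counts) and control replicate 2 (124737 and 9506 counts). That ratio was looked at after the values were seen and was not tested. In all 7 ratios were tested, 3 pools against 3 cannot give a two-sided p under 0.1, and the smallest p adjusted over the 7 was 0.35.

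The members were next set against miR-199a-3p, an abundant miRNA of fibroblasts, the cells that build the mammalian sclera. Its counts are also listed for miR-199b-3p, so the genes cannot be told apart. Its level was 42332 ± 1193 CPM in CNV and 33934 ± 1586 CPM in control pools (SD, n = 3 each; log2 0.32, SE 0.13, adjusted p 0.257 in edgeR's quasi-likelihood test). Since miR-199a-3p was itself higher in every CNV pool than in any control pool, a miRNA with equal levels in both groups has a lower ratio to it in CNV. Over the 538 other tested miRNAs with counts in every library the median difference in log2 ratio was -0.30, and 35.5% had a lower ratio in every CNV pool than in any control pool. Both miR-140 arms were among these, which does not set them apart. The log2 ratio of miR-140-3p to miR-199a-3p was -2.167, -2.135 and -2.223 in CNV replicates 1 to 3, against -1.763, -2.132 and -1.895 in control replicates 1 to 3, so control replicate 2 lay just above the CNV range. The difference of means was -0.24 (two-sided exact permutation p = 0.1, adjusted 0.35), no further below 0 than the median over the 538. The log2 ratio of miR-140-5p to miR-199a-3p averaged -6.13 ± 0.34 in CNV and -5.55 ± 0.09 in control pools (SD, n = 3 each), a difference of -0.58 (two-sided exact permutation p = 0.1, adjusted 0.35) with all 3 CNV pools on the lower side. Relative to the same miRNA, miR-455-5p differed by 0.057 (two-sided exact permutation p = 0.9, adjusted 0.9), with -6.32 ± 0.07 in CNV and -6.38 ± 0.25 in control pools. The ratio of miR-455-3p averaged -7.07 ± 0.18 in CNV and -7.32 ± 0.22 in control pools, a difference of 0.25 (two-sided exact permutation p = 0.2, adjusted 0.467) that was 0.15 without control replicate 2. The groups overlapped for both miR-455 arms.

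No other miRNA of the cartilage-linked list passed edgeR's test, DESeq2 or limma-voom. Of the 11 in the list 8 were tested, of which 4 had a positive and 4 a negative log2 fold change, and the median was 0.032, against 0.015 over all tested miRNAs. The groups did not overlap for 2 of the 8, miR-1247-5p and miR-101a-3p, both lower in CNV, a position shared by 11.3% of the tested miRNAs. At an unadjusted p under 0.05 in edgeR's test there was 1 of the 8, miR-1247-5p, against 9.06% of the tested miRNAs on the lower side. A count over 8 is too small to be read against these shares. Scaled by library totals alone, the list's median was -0.12, and it was -0.071 to -0.0037 when 1 library was left out, so it carries no direction. The lowest p was that of miR-1247-5p, which is known in human chondrocytes to form a loop with SOX9. Its level was 1.00 ± 0.69 CPM in CNV and 2.56 ± 0.43 CPM in control pools (SD, n = 3 each; log2 -1.30, SE 0.46, adjusted p 0.218 in edgeR's quasi-likelihood test), a level near the filter. Next came miR-101a-3p, at 8398 ± 727 CPM in CNV and 10139 ± 525 CPM in control pools (log2 -0.27), and miR-148a-3p, at 35843 ± 1522 and 29866 ± 8437 CPM in CNV and control pools (log2 0.26). The level of miR-101c was nearly that of miR-101a-3p in each library, so reads may be shared. Both arms of miR-675, made from the H19 transcript and known to act downstream of SOX9 in human chondrocytes, were rare. In CNV libraries miR-675-5p had 4 to 8 counts and in control libraries 2 to 10, and miR-675-3p had 5 to 9 and 0 to 16. The list thus ran from hardly counted miRNAs to miR-148a-3p, which was more abundant than miR-140-3p.

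**Figure D4:**
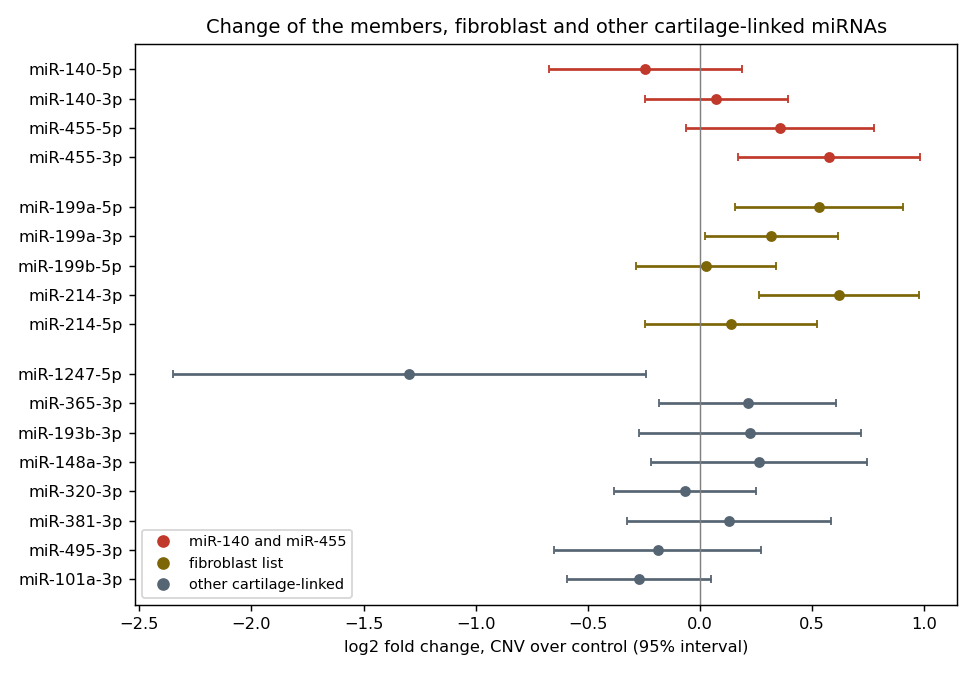
Log2 fold change, CNV over control, with its 95% interval from edgeR's fit, for the miR-140 and miR-455 arms (red), the 5 fibroblast miRNAs (brown) and the 8 tested other cartilage-linked miRNAs (grey). The interval of miR-455-3p (0.17 to 0.98) lies above 0 before adjustment and those of the other 3 arms include 0.

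Marker miRNAs of fibroblasts and other cells were set beside these values, and their part in the differences was not tested. Under TMM all 5 fibroblast miRNAs had a positive log2 fold change (median 0.32, and 0.17 when scaled by library totals alone), and 0 passed the test. They summed to 58508 to 64836 CPM in CNV and 47189 to 51095 CPM in control libraries. Those with the lowest p were miR-214-3p (log2 0.62), miR-199a-5p (0.53) and miR-199a-3p (0.32). The mural cell list of 4 had a median of 0.16 (0.011 when scaled by library totals alone and 0.065 without control replicate 2), with miR-143-5p at -0.35, miR-143-3p at 0.29 and miR-145a-5p at 0.35. The endothelial pair miR-126a-5p and miR-126a-3p were at -0.28 and -0.08 (median -0.18). The skeletal muscle list of 5 had a median of 0.12, with miR-499-5p at -0.80, miR-133b-3p at 0.27 and miR-206-3p at 0.22. That median carries no direction, since it was -0.022 when scaled by library totals alone, -0.21 without control replicate 1 and -0.061 without CNV replicate 1. The list summed to 58216 to 92086 CPM in CNV and to 34882, 82153 and 92236 CPM in control replicates 1 to 3. All 4 RPE miRNAs were negative (median -0.44), with miR-211-3p at -0.91, miR-211-5p at -0.39 and miR-204-3p at -0.50. All 5 neural retina miRNAs were negative (median -0.92), with miR-96-5p at -0.93, miR-9-5p at -0.60 and miR-183-5p at -0.79, and they summed to 31909 to 61196 CPM in CNV and 62188 to 95738 CPM in control libraries. The neural retina is not among the layers named as collected, and what its differing amount does to the other levels was not tested. The leukocyte list of 4 had a median of 0.75, with miR-142a-3p at 0.84, miR-223-3p at 0.66 and miR-142a-5p at 1.08, while miR-150-5p, typical of mature lymphocytes, was at -0.48. It summed to 612 to 911 CPM in CNV and 463 to 581 CPM in control libraries. The 3 red cell miRNAs had a median of 0.30, with miR-451a at 0.78, miR-486a-5p at 0.30 and miR-144-3p at 0.28, but the median was -0.012 without CNV replicate 1 and 0.67 without CNV replicate 3. The 3 surface epithelium miRNAs had a median of 0.42, with miR-203-3p at 0.42, miR-205-5p at 0.52 and miR-200b-3p at 0.30, but the median was 0.090 without CNV replicate 1 and 0.78 without control replicate 1. No member of these lists passed edgeR's quasi-likelihood test after adjustment. In that test the unadjusted p was under 0.05 for 3 fibroblast and 3 leukocyte miRNAs that were higher. It was also under 0.05 for 5 neural retina, 2 RPE and 1 leukocyte miRNA (miR-150-5p) that were lower. Over all tested miRNAs 8.5% were higher and 9.06% lower at that level. DESeq2 called miR-214-3p and 3 leukocyte miRNAs higher and miR-211-3p and miR-96-5p lower, and limma-voom called 0. Over all small RNAs DESeq2 called 27 higher and 11 lower. Counts over lists this small are not read against these backgrounds.

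The profile of each arm over the 6 libraries was compared with those of the other 540 tested miRNAs, as the root-mean-square (RMS) difference of log2 CPM after each was centred on its own mean. The nearest to miR-455-3p were miR-212-5p (RMS difference 0.066), let-7j (0.11) and let-7e-5p (0.12), against a median of 0.42 over all others; let-7 miRNAs differ by few bases and may share reads. The nearest to miR-455-5p were miR-1943-5p (0.048), miR-27b-5p (0.060) and miR-532-5p (0.078), which shared its low value in control replicate 1. At 1.55 to 3.18 CPM miR-1943-5p was near the filter, so its likeness rests on few counts. The nearest to miR-140-3p were miR-23a-3p (0.066), miR-505-3p (0.067) and miR-409-5p (0.069), which varied little between libraries. The nearest to miR-140-5p were miR-32-5p (0.073), miR-195a-5p (0.093) and miR-130a-3p (0.096), which were also lowest in CNV replicates 1 and 2. The arms of 1 hairpin were not each other's nearest. Among the 540, miR-140-3p was number 205 in likeness to miR-140-5p (RMS difference 0.32), and miR-455-3p was number 107 in likeness to miR-455-5p (0.24). These orders are descriptions over 6 libraries that share their scaling and depth.

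**Figure D5:**
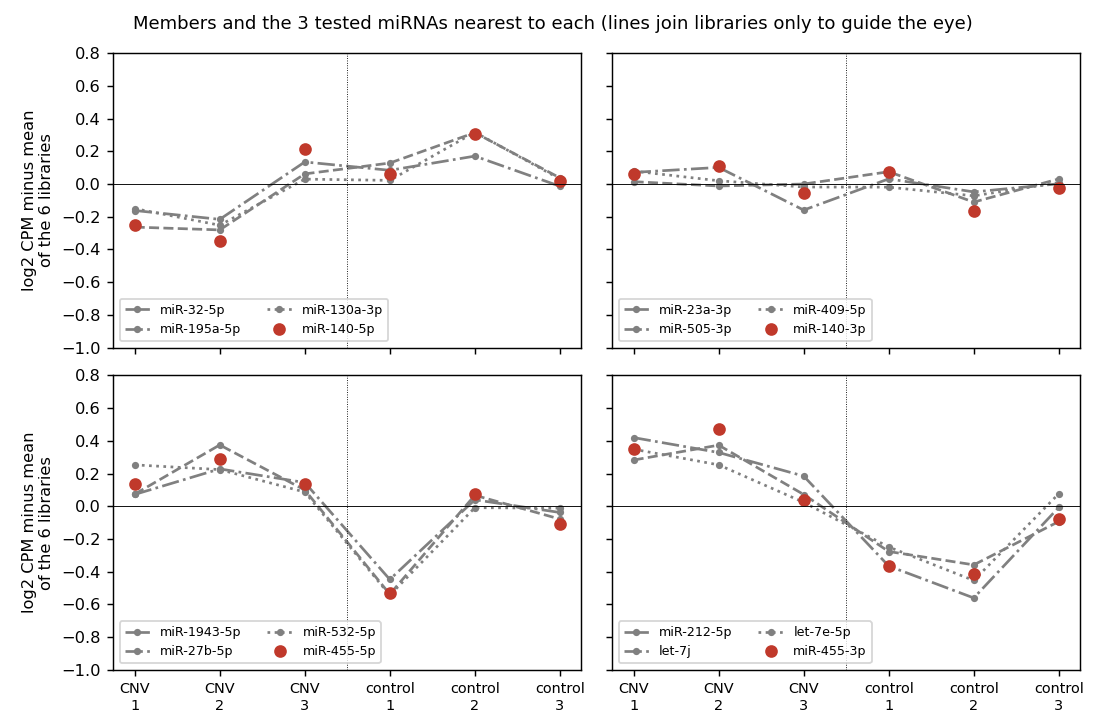
Log2 CPM in each library minus the mean of the 6 libraries, for each arm (red points) and the 3 tested miRNAs nearest to it by RMS difference (grey lines), with CNV libraries on the left and control libraries on the right of the dotted line. The red points of miR-140-3p stay near 0, those of miR-140-5p are lowest in CNV replicates 1 and 2, and those of miR-455-5p are lowest in control replicate 1.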

How the data were processed

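The authors deposited, for each of the 6 libraries, a read count per mature miRNA and tRNA-derived small RNA, and a CPM column that was not used. The submitters' processing notes name Bowtie. Not given in the sources used here are its version, the build, the mismatches allowed and the handling of reads with several matches. Per the labels' protocols, Trizol was used for extraction, inserts of 14 to 40 nt were cut from a gel, and a NextSeq 500 was used. No molecular identifiers are mentioned, so intervals from counts cover counting error only.

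Counts were analysed in R 4.3.3 with edgeR 4.0.16: filterByExpr (minimum count 10, minimum total 15), TMM factors, glmQLFit and glmQLFTest with no covariate, and Benjamini-Hochberg adjustment over all small RNAs kept, at 0.05. Library sizes after the filter were 99.9% or more of the total. The test was checked on simulated counts. Log2 CPM for profiles used a prior count of 2. Ratios were tested in scipy 1.17.1 by exact permutation. Alternatives were other scalings and filters, miRNAs alone, DESeq2 1.42.0, limma-voom (limma 3.58.1), a replicate block and leaving out each library. Host genes are from GENCODE M21 (GRCm38).

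The members, the lists (cartilage-linked, fibroblast, mural cell, endothelium, skeletal muscle, RPE, neural retina, leukocyte, red cell and surface epithelium) and the tests were chosen with earlier results of these data known. The rule named the 4 members, from each list up to 3 members by smallest p, miR-199a-3p (to which all tested miRNAs were also set, after the values were seen) and the 3 miRNAs nearest in profile to each member. The seed partners, other list members and miR-675 arms were named after their values were seen.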

Additional observations from a re-analysis of the deposited data

How the results depend on the processing

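None of the 4 arms passed under any of the 14 alternatives run, and miR-455-3p, miR-455-5p and miR-140-5p kept their sign in all 14. The log2 fold change of miR-140-3p changed sign when scaled by library totals alone (-0.078) and with no filter on low counts (-0.015), and ran from -0.087 to 0.14 when 1 library was left out. Leaving out 1 library gave -0.52 to -0.18 for miR-140-5p, 0.21 to 0.40 for miR-455-5p and 0.41 to 0.64 for miR-455-3p. The difference in the log2 ratio of the miR-455 arms ran from -0.33 to 0.0017 and that of miR-455-5p to miR-199a-3p from -0.088 to 0.15. The other 5 ratios kept their sign but not their size, with -0.50 to -0.073 for miR-140-3p to miR-455-5p and -0.55 to -0.18 for the miR-140 arms. Relative to miR-199a-3p they gave -0.77 to -0.45 for miR-140-5p, -0.35 to -0.16 for miR-140-3p and 0.15 to 0.37 for miR-455-3p.

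Over all small RNAs the 3 calls higher and 0 lower became 45 and 43 with no filter on low counts, 27 and 11 with DESeq2, 0 and 0 at a minimum mean of 20 CPM, and 6 and 0 with miRNAs alone; leaving out 1 library gave 0 to 14 higher and 0 to 10 lower. The causes were not tested. With the replicate number as a block there were 19 and 17 calls, and the arms had log2 fold changes of -0.26 (miR-140-5p), 0.075 (miR-140-3p), 0.38 (miR-455-5p) and 0.57 (miR-455-3p), with adjusted p from 0.139 to 0.855 in edgeR's quasi-likelihood test. The titles give only a number, and the deviations of same-numbered libraries correlated at 0.29, 0.030 and 0.17 over 997 small RNAs. Each CNV library correlated best with the control library of its own number, while control replicate 2 correlated better with CNV replicate 3 (0.15). Whether the numbers mark pairs is not known, and the main test did not use them.

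Scaled by library totals alone, the medians were -0.12 for the cartilage-linked, 0.17 for the fibroblast, 0.011 for the mural cell, -0.32 for the endothelium and -0.59 for the RPE list. Leaving out 1 library gave medians of -0.071 to -0.0037 for the cartilage-linked list (0.032 with all libraries) and 0.26 to 0.30 for the fibroblast list (0.32 with all libraries). The medians were -0.36 to -0.16 for the endothelium and -0.21 to 0.31 for the skeletal muscle list. They were -0.012 to 0.67 for the red cell and 0.090 to 0.78 for the surface epithelium list. Smaller groups let more small RNAs pass the filter, and what this did to the medians was not tested. Depth did not limit the arms, which had at least 1166 counts, but it does limit miR-1247-5p and miR-675.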

Other observations

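The likeness in order of the 5p shares of miR-140 and miR-455 over the libraries, noticed after the values were seen, was set beside all 156 hairpins with both arms tested. The log2 ratio of 5p to 3p, centred on its mean over the 6 libraries, was 0.47 for miR-140 and 0.49 for miR-455 in control replicate 2, where the median over the 156 hairpins was -0.014. In CNV replicate 2 it was -0.46 for miR-140 and -0.18 for miR-455, where the median was -0.030. Control replicate 2 held the highest ratio for 25 of the 156 hairpins (16.0%), the other libraries for 10.3 to 22.4%. The difference of the ratio between CNV and control was negative for 77 of the 156 (49.4%), with a median of 0.018. The values of -0.33 for miR-140 and -0.20 for miR-455 had 17.3% and 26.9% of hairpins below them, and the groups did not overlap for 26 hairpins (16.7%). The points share their libraries, and no cause was tested.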
